A study of Drosophila melanogaster with 12 samples.

Results

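The genes described here are 9 activity-regulated and immediate early genes of Drosophila melanogaster: Hr38, sr, Arc1, Arc2, kay, Jra, Atf3, cbt and puc. They were taken from the table by gene symbol, and all 9 were found among the 12610 genes listed. All 9 also passed the filter on low values, among the 9912 genes that were tested. Brains of larvae early in instar 3 were dissociated, and their cells were sorted by FACS before RNA extraction. The 4 groups were GFP-positive cells of rfx knock-out (KO) brains, GFP-positive cells of wild-type (WT) brains, GFP-negative cells of KO brains and GFP-negative cells of WT brains, with 3 libraries each. Cells expressing Rfx carry the GFP; Rfx is a transcription factor that switches on genes needed to build cilia. The labels name neither the knock-out allele nor the transgene that carries GFP, and they give no treatment, no sex and no number of animals. Nothing in the labels says that neurons were stimulated before sorting, so the values are levels in dissociated and sorted cells.

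Immediate early genes are transcribed within minutes of a stimulus, before any new protein is made, because the factors that switch them on are already in the cell. In neurons the stimulus is firing and the entry of calcium, and outside neurons it can be a growth factor, stress or a wound. In flies, Hr38 and sr are widely used as a record of recent neuronal activity. kay and Jra are the fly Fos and Jun, which pair as the AP-1 transcription factor, and puc is a phosphatase gene that AP-1 switches on and whose product then switches the Jun kinase off.

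Depth ran from 20301256 to 29771321 reads in a library, and values are normalised read counts on a counts-per-million scale. Rfx averaged 1126 ± 170 in KO GFP-positive and 2793 ± 217 in WT GFP-positive cells, and 53.05 ± 1.295 in KO GFP-negative and 73.7 ± 0.358 in WT GFP-negative cells (SD, n = 3 each). The rRNA share of reads was 2.54% in KO GFP-positive replicate 3, 12.2% in WT GFP-positive replicate 2, and 0.289% to 0.976% in all other libraries. All groups are labelled as neurons, and the neuronal marker elav stood between 526 and 704 in all 12 libraries. The neuroblast markers wor and ase stood between 3.72 and 9.25 in GFP-positive libraries and between 277 and 609 in GFP-negative libraries, so the GFP-negative fraction also held RNA of neuroblasts. No marker of neurons, neuroblasts, glia or hemocytes was listed at 0 in every library, and the hemocyte marker NimC1 stood between 0.0784 and 1.43. Summed over 8 hemocyte markers, GFP-positive libraries held 103 to 261 in KO and 114 to 273 in WT brains. GFP-negative libraries held 48.2 to 81.1 in KO and 32.2 to 61.9 in WT brains. Replicate 1 of each group has a title number from 13 to 16, replicate 2 from 1 to 4 and replicate 3 from 5 to 8. The first 2 of these runs of numbers were each sequenced on a single lane (lanes 7 and 6), while of title numbers 5 to 8 the KO libraries were on lane 7 and the WT libraries on lane 6. The labels do not say that replicates came from separate animals, and p-values therefore reflect library-to-library spread, which may be technical.

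The 9 genes lie on 4 chromosome arms in the BDGP6 assembly. Hr38 (FBgn0014859) spans 2L, 20683462 to 20714588, on the minus strand, and cbt (FBgn0043364) spans 2L, 476446 to 479688, also on the minus strand. Arc1 (FBgn0033926; 2R, 14357927 to 14360297, minus strand) and Arc2 (FBgn0033928; 2R, 14361924 to 14362825, plus strand) are divergent neighbours with 1626 bases between them. Jra (FBgn0001291) spans 2R, 10096480 to 10098556, on the plus strand. The remaining genes are sr (FBgn0003499; 3R, 18090803 to 18135583, plus strand), kay (FBgn0001297; 3R, 29765995 to 29794113, plus strand), puc (FBgn0243512; 3R, 8105332 to 8122294, plus strand) and Atf3 (FBgn0028550; X, 1242740 to 1275284, minus strand). The library protocol keeps no strand, so reads in exons shared with a gene on the opposite strand cannot be told apart. Hr38 shares 168 exon bases, 2.18% of its exons, with CG2617, and Jra shares 39 exon bases, 2.38% of its exons, with RpLP0-like. cbt lies within the span of ush on the opposite strand and shares 0 exon bases with it.

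Per kilobase of annotated exon, puc had the highest level of the 9 genes in all 4 groups. It averaged 70.0 ± 5.87 normalised reads per kb in KO GFP-positive, 62.8 ± 5.03 in WT GFP-positive, 54.0 ± 4.57 in KO GFP-negative and 60.9 ± 6.33 in WT GFP-negative cells (SD, n = 3 each). In WT GFP-positive cells the order below puc was Jra at 35.4 ± 2.36, sr at 27.7 ± 11.9, kay at 21.0 ± 0.705, Arc1 at 19.8 ± 6.15 and Hr38 at 10.4 ± 5.59 reads per kb. cbt at 9.38 ± 3.38, Arc2 at 7.07 ± 1.42 and Atf3 at 2.78 ± 1.26 reads per kb followed. Mean ± SD overlapped between every pair of neighbours in that order except puc and Jra, and Arc2 and Atf3. In KO GFP-positive cells Arc1 came after Hr38, at 8.84 ± 4.55 against 14.7 ± 10.5 reads per kb. In GFP-negative cells sr and Arc1 stood lower in the order: kay, at 13.9 ± 1.98 reads per kb in KO and 13.5 ± 0.849 in WT cells, was above sr, at 9.89 ± 5.92 in KO and 8.999 ± 1.97 in WT cells. All 9 transcripts were therefore present without a stated stimulus, with puc above 84.0% to 87.4% of all tested genes per kb and Atf3 above 27.4% to 29.9%.

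sr encodes a zinc finger transcription factor of the Egr family, the relatives of mammalian Egr1, and it was higher in GFP-positive than in GFP-negative cells of both genotypes. In KO brains, replicates 1, 2 and 3 had normalised read counts of 233, 461 and 167 in GFP-positive cells and 93.1, 121 and 27.1 in GFP-negative cells. In WT brains they had 172, 337 and 166 in GFP-positive cells and 81.3, 83.2 and 54.6 in GFP-negative cells. Every GFP-positive library was above every GFP-negative library of its genotype, and replicate 2 was the highest of each GFP-positive group. The ratio of GFP-positive to GFP-negative means was 3.57 in KO and 3.08 in WT brains. On the log2(value + 1) scale the difference was 1.94 ± 0.50 in KO (SE; limma adjusted p = 0.00904) and 1.56 ± 0.50 in WT brains (adjusted p = 0.0269). The WT call was lost without WT GFP-positive replicate 2 (ratio 2.32, adjusted p = 0.106), without WT GFP-negative replicate 1 (adjusted p = 0.0523) or without WT GFP-negative replicate 3 (adjusted p = 0.0947).

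Hr38 encodes the fly member of the NR4A family of nuclear receptors, whose mammalian relatives are immediate early genes of neurons. It did not pass in any comparison in the main limma fit, which has no block for the runs of title numbers. Between the KO fractions it passed in 4 of 26 alternatives, the block among them. In KO brains, replicates 1, 2 and 3 had 56.2, 206 and 78.1 in GFP-positive cells and 42.4, 79.4 and 23.5 in GFP-negative cells. In WT brains they had 53.2, 130.1 and 58.0 in GFP-positive cells and 77.8, 69.8 and 44.9 in GFP-negative cells. The groups overlapped in both genotypes, and a single library, replicate 2, was far above the other GFP-positive libraries of its genotype. The ratio of GFP-positive to GFP-negative means was 2.34 in KO brains, or 1.39 without KO GFP-positive replicate 2, and 1.25 in WT brains. The log2 difference was 1.15 ± 0.508 in KO (SE; limma adjusted p = 0.0959) and 0.24 ± 0.508 in WT brains (adjusted p = 0.731). Without the 4 libraries of title numbers 1 to 4, a setting added after the data were seen, the KO difference was 1.04 and passed (adjusted p = 0.0234). Without KO GFP-negative replicate 2 it was 1.585 and passed too (limma adjusted p = 0.0321). With the runs as a replicate block the KO difference passed as well (limma adjusted p = 0.00494), as it did with lane as a covariate (adjusted p = 0.0398), and the WT difference did not (adjusted p = 0.508 with the block). Within the 3 runs the KO ratio of GFP-positive to GFP-negative cells was 1.32, 2.599 and 3.32 (title numbers 13 to 16, 1 to 4 and 5 to 8).

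Arc1 and Arc2 descend from the Gag protein of a retrotransposon, as mammalian Arc does independently, and Arc1 protein forms capsid-like particles that carry its own mRNA across the neuromuscular synapse. Arc1 in KO brains stood at 16.4, 33.3 and 13.2 in GFP-positive replicates 1, 2 and 3 and at 4.88, 8.06 and 6.23 in GFP-negative replicates 1, 2 and 3. In WT brains it stood at 35.2, 63.3 and 42.3 in GFP-positive and at 8.94, 11.1 and 9.52 in GFP-negative replicates. The fractions did not overlap in either genotype, and Arc1 had the largest ratio of the 9 genes in WT brains. GFP-positive means were 3.28 times the GFP-negative means in KO (log2 difference 1.49 ± 0.303, limma adjusted p = 0.0021) and 4.76 times in WT brains (2.11 ± 0.303, adjusted p = 0.000145). Both calls held in all 26 alternatives.

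Arc2, the shorter neighbour, was much scarcer, with 33 to 169 reads per library. In KO brains replicates 1, 2 and 3 had 4.64, 4.94 and 3.13 in GFP-positive and 2.38, 3.20 and 1.44 in GFP-negative cells. In WT brains they had 5.53, 7.85 and 5.76 in GFP-positive and 2.03, 3.41 and 3.42 in GFP-negative cells. The WT fractions did not overlap, while the lowest KO GFP-positive library was just under the highest KO GFP-negative library. The log2 difference was 0.67 ± 0.249 in KO (adjusted p = 0.0524, not called, but 0.0218 with the replicate block) and 0.91 ± 0.249 in WT brains (adjusted p = 0.0119). The WT call was lost without WT GFP-positive replicate 2 (adjusted p = 0.0546). In the main limma fit Arc2 was called in WT and not in KO brains, where it passed in 8 of 26 alternatives. The interaction, -0.24 ± 0.352, did not pass (adjusted p = 1).

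The AP-1 genes differed in how far they separated the fractions. kay, the fly Fos, had 206, 198 and 139 in KO GFP-positive replicates 1, 2 and 3 against 118, 117 and 90.7 in KO GFP-negative replicates. In WT brains kay had 164, 158 and 169 in GFP-positive against 103, 99.2 and 112 in GFP-negative replicates. The fractions did not overlap, and the ratio within each run of title numbers was narrow, between 1.53 and 1.75 in KO and between 1.51 and 1.60 in WT brains. The log2 difference of kay was 0.72 ± 0.147 in KO (limma adjusted p = 0.00207) and 0.64 ± 0.147 in WT brains (adjusted p = 0.0044). Jra, the fly Jun, had 78.1, 72.8 and 67.3 in KO GFP-positive against 54.1, 55.5 and 58.5 in KO GFP-negative replicates. In WT brains Jra had 53.9, 59.5 and 61.3 in GFP-positive against 44.4, 54.1 and 51.7 in GFP-negative replicates. The KO fractions did not overlap and the WT fractions did, by less than 1 unit. Jra was called in KO (log2 difference 0.37 ± 0.107, adjusted p = 0.0163) and not in WT brains (0.22 ± 0.107, adjusted p = 0.13), and the interaction, 0.15 ± 0.151, did not pass (adjusted p = 1). Leaving out KO GFP-positive replicate 1 or 2, or KO GFP-negative replicate 1, ended the KO call of Jra (adjusted p = 0.0563, 0.0501 and 0.0592), as did scaling every library to the same total (equal totals, 0.300) and quantile normalisation (0.0907).

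puc encodes the dual-specificity phosphatase that inactivates bsk, the fly Jun kinase, and its transcription is the standard readout of Jun kinase activity in flies. It had 221, 241 and 204 in KO GFP-positive against 168, 187 and 158 in KO GFP-negative replicates 1, 2 and 3. In WT brains puc had 184, 198 and 215 in GFP-positive against 183, 180.5 and 216 in GFP-negative replicates. The KO fractions were apart, and the WT fractions covered the same range. The ratio of GFP-positive to GFP-negative cells within the 3 runs of title numbers lay between 1.29 and 1.31 in KO and between 0.996 and 1.10 in WT brains. puc was called in KO (log2 difference 0.37 ± 0.109, limma adjusted p = 0.0173) and not in WT brains (0.05 ± 0.109, adjusted p = 0.761). The difference between these differences, 0.33 ± 0.154 on the log2 scale with an interval of -0.00686 to 0.663, had an adjusted p of 1 in limma (0.0542 before adjustment). The KO call was lost with edgeR on whole reads (adjusted p = 0.0578), and without KO GFP-positive replicate 2 (adjusted p = 0.0797), KO GFP-negative replicate 1 (0.0536) or KO GFP-negative replicate 3 (0.0786). It was also lost with equal totals (adjusted p = 0.3602) and with quantile normalisation (0.346).

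Atf3, a basic leucine zipper factor that can pair with Jun, and cbt, a zinc finger factor of the TIEG type, were not called between the fractions in the main limma fit. Between the fractions of either genotype, Atf3 was called in 0 of 26 alternatives. Atf3 had 14.1, 29.9 and 19.5 in KO GFP-positive against 17.8, 21.7 and 16.4 in KO GFP-negative replicates 1, 2 and 3. In WT brains Atf3 had 13.8, 29.7 and 15.0 in GFP-positive against 25.5, 19.8 and 20.0 in GFP-negative replicates. Its fractions overlapped fully, with a log2 difference of 0.12 (interval -0.504 to 0.751) in KO and -0.22 (interval -0.849 to 0.406) in WT brains. cbt had 21.4, 35.1 and 23.3 in KO GFP-positive against 17.4, 27.0 and 13.9 in KO GFP-negative replicates. In WT brains cbt had 28.6, 42.2 and 20.47 in GFP-positive against 18.0, 20.8 and 21.9 in GFP-negative replicates. The fractions of cbt overlapped as well, with log2 differences of 0.45 in KO (adjusted p = 0.221) and 0.51 in WT brains (adjusted p = 0.169). With the replicate block the WT difference of cbt passed (adjusted p = 0.036) and the KO difference did not (0.059), while its WT ratio within the 3 runs was 1.59, 2.03 and 0.933.

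**Figure D1:**
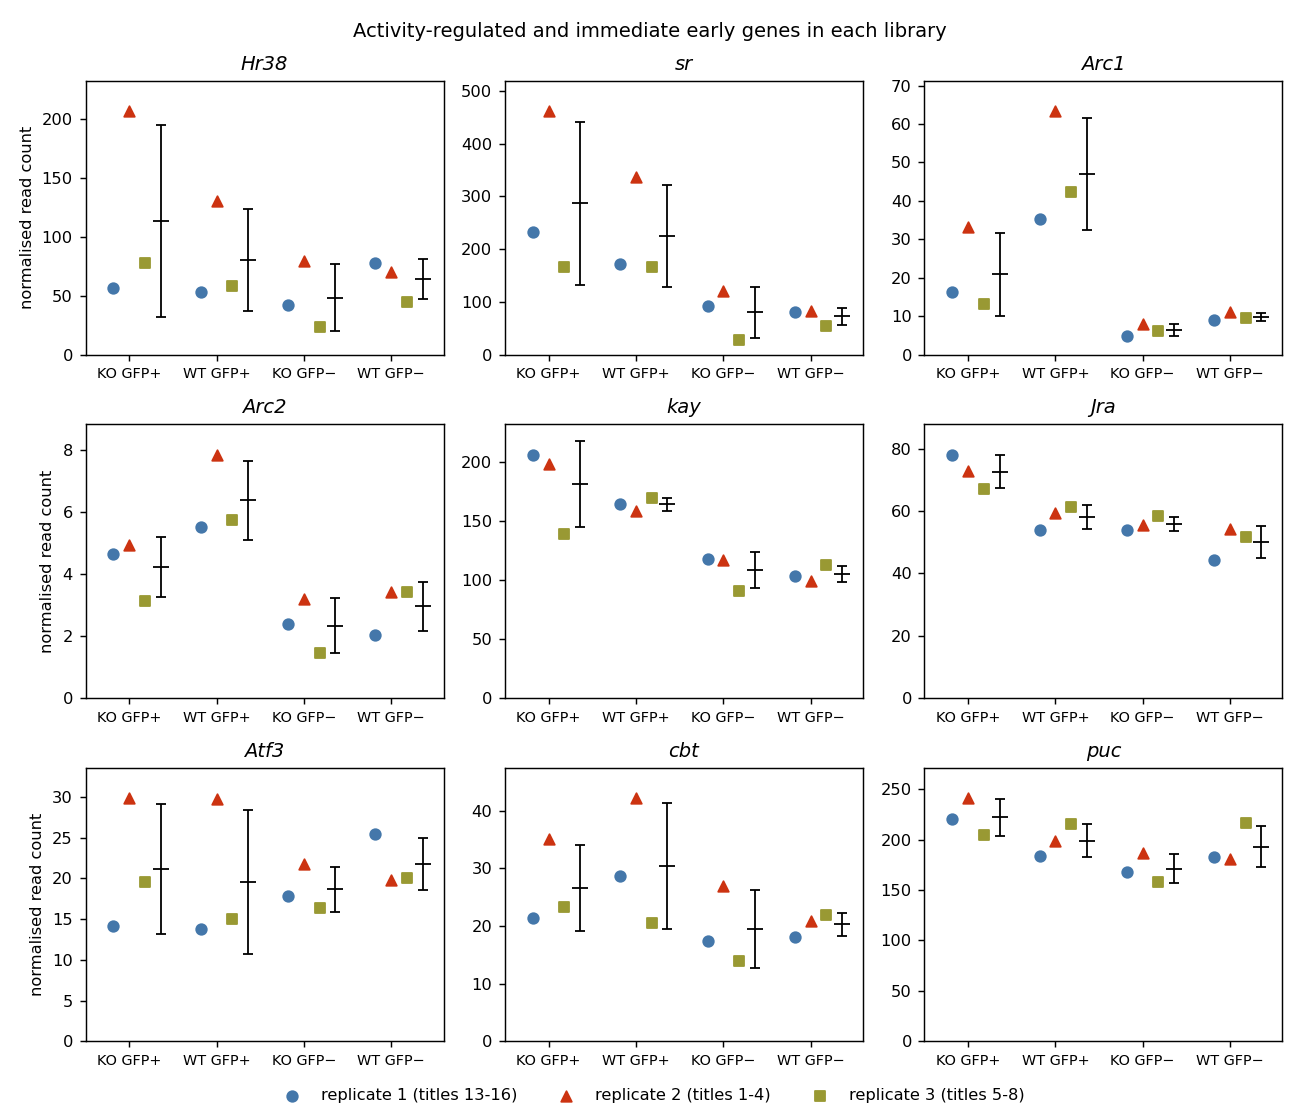
Normalised read counts (vertical axes, linear and starting at 0) of the 9 genes in the 12 libraries, in KO GFP-positive, WT GFP-positive, KO GFP-negative and WT GFP-negative cells. Symbols mark replicates, and bars beside them the mean ± SD of 3 libraries; replicate 2 (triangles) is the highest GFP-positive library of Hr38, sr, Arc1, Arc2, Atf3 and cbt in both genotypes, and Arc1 is lower in every KO library than in any WT library of the same fraction.

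Between the sorted fractions, 5 of the 9 genes were thus called higher in KO GFP-positive than in KO GFP-negative cells (sr, Arc1, kay, Jra and puc), against 23.6% of all tested genes. In WT brains 4 of the 9 were called higher (sr, Arc1, Arc2 and kay), against 25.7% of all tested genes, and 0 were called lower in either genotype. With the replicate block 7 were called higher in KO brains, Hr38 and Arc2 being added, against 28.6% of all tested genes, and 5 in WT brains, cbt being added, against 30.6%. The genes called without the block were those whose libraries did not overlap, 5 in KO against 30.3% of all tested genes and 4 in WT brains against 33.0%. The median log2 difference of the 9 genes was 0.67 in KO against 0.07 over all tested genes, and 0.51 in WT against 0.09 over all tested genes. These comparisons depend on how libraries are scaled. With every library scaled to the same total, 3 of the 9 were called higher in KO brains (sr, Arc1 and kay) and 2 in WT brains (Arc1 and Arc2). That scaling put the median of all tested genes at -0.13 in KO and -0.185 in WT brains, and the calls of all genes were then 1344 higher and 2029 lower in KO and 1133 higher and 2263 lower in WT brains. Under the authors' scaling they were 2341 higher and 1274 lower in KO and 2550 higher and 1215 lower in WT brains. Relative to the median of all tested genes, the WT difference of sr was 1.47 under the authors' scaling, 1.44 under equal totals and 1.25 under quantile normalisation. The WT difference of kay was 0.55, 0.53 and 0.33 in that order, that of Arc2 0.82, 0.86 and 1.245, and the KO difference of puc 0.30, 0.28 and 0.096. Quantile normalisation called 4 of the 9 genes higher in KO brains, without Jra and puc and with Arc2 (adjusted p = 0.0393), and the 4 called under the authors' scaling in WT brains. Of all 9912 tested genes it called 2118 higher in KO and 2244 higher in WT brains.

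Some markers of neurons moved with these differences. Of 11 tested pan-neuronal genes, 8 were called higher in KO GFP-positive than in KO GFP-negative cells, against 23.6% of all tested genes. In WT brains 6 were called higher, against 25.7%, with 0 lower in either genotype. The other 3 in KO and 5 in WT brains were not called. Of the 11, elav averaged 596 ± 29.2 in GFP-positive against 628 ± 64.4 in GFP-negative cells in KO, and 584 ± 73.9 against 659 ± 44.5 in WT brains. With equal totals 8 were higher in KO, and 3 were higher and 1 lower in WT brains. Their summed level was 8486 to 11472 in KO GFP-positive against 4282 to 5325 in KO GFP-negative libraries, and 8861 to 11022 in WT GFP-positive against 4575 to 5366 in WT GFP-negative libraries. Of 10 neuroblast markers, 9 were lower and pros was higher in GFP-positive cells of both genotypes, and 5 of 10 glial markers were lower and 1 higher. Among all 9912 tested genes, 1274 were lower in KO and 1215 in WT brains. With equal totals pros was not called, the same number of neuroblast markers was lower, and 6 glial markers were lower. Of 6 tested hemocyte markers, 3 were higher and 0 lower in GFP-positive cells of each genotype. The other 3 were not called, among them Hml, whose mean was lower in GFP-positive cells of both genotypes. With equal totals 2 hemocyte markers were higher in KO and 3 in WT brains. In sorted bulk RNA, fewer cells of a type and less RNA per cell cannot be told apart, and the part of these cell types in the differences of sr, Arc1, Arc2 and kay was not tested.

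**Figure D2:**
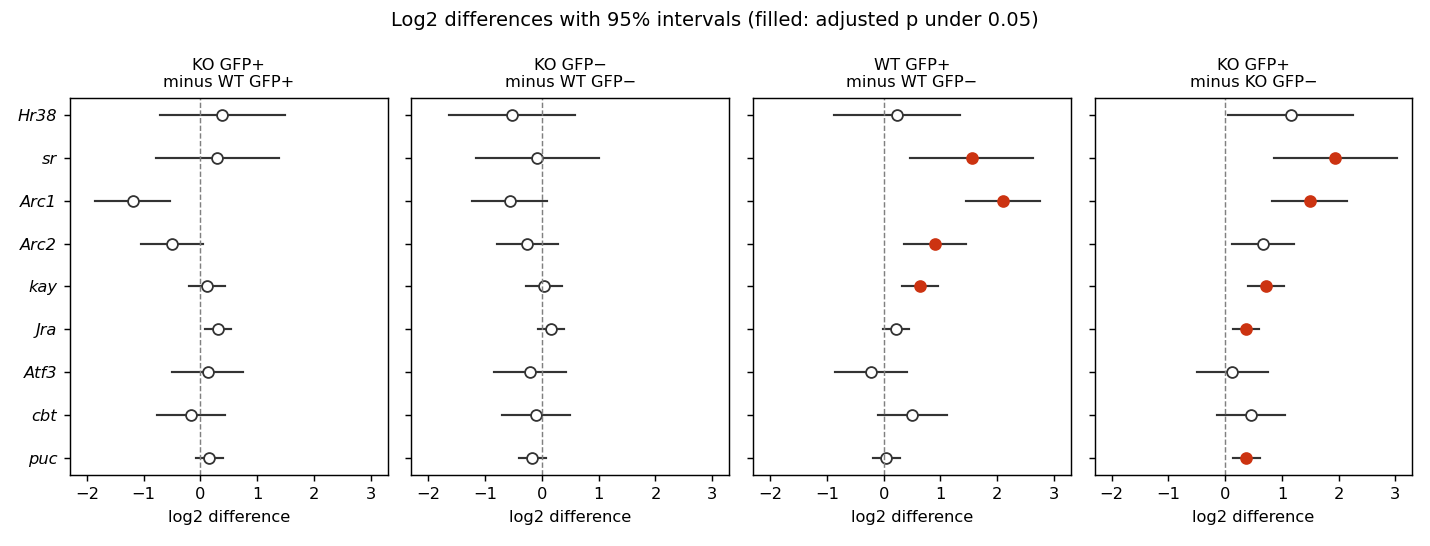
Log2 differences on the log2(value + 1) scale (horizontal axes) with 95% intervals for the 9 genes in 4 comparisons, from a single limma fit of 12 libraries; filled points have an adjusted p under 0.05. The 2 panels on the right hold all filled points, 5 for the KO and 4 for the WT sorted fractions, and the interval of Arc1 lies below 0 in KO against WT GFP-positive cells, where its adjusted p was 0.0572.

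KO and WT GFP-positive cells were compared next. Rfx RNA itself had a KO to WT ratio of 0.403 there. Any other genetic difference between KO and WT animals cannot be told apart from the loss of Rfx. None of the 9 genes was called by limma, against 3.07% of all tested genes. edgeR on whole reads called 0 as well, 2 genes had an unadjusted p under 0.05 (Arc1 and Jra), and DESeq2 on whole reads called these 2, against 5.09% of all tested genes. With the replicate block limma called 1, Arc1, against 4.79% of all tested genes. The groups did not overlap for Jra, which was higher in all KO libraries (8.16% of all tested genes were higher without overlap), or for Arc1 and Arc2, which were lower in all KO libraries (5.94% were lower without overlap). The median log2 difference of the 9 genes was 0.13, against 0.01 over all tested genes.

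Arc1 had the largest difference by genotype among the 9 genes. It averaged 21.0 ± 10.8 in KO GFP-positive and 46.9 ± 14.6 in WT GFP-positive cells (SD, n = 3 each), a ratio of 0.447. The highest KO library, at 33.3, was below the lowest WT library, at 35.2. On the log2 scale the difference was -1.19 ± 0.303 (SE; 95% interval -1.85 to -0.533), with a limma adjusted p of 0.0572 (0.00188 before adjustment). Over 26 alternatives it stayed negative, between -1.57 and -0.70, and the adjusted p ran from 0.0017 to 0.302, under 0.05 in 8 of them. The smallest of these was with the replicate block. The difference was -0.70 with the 2 rRNA-rich libraries left out (adjusted p = 0.302), -1.57 without KO GFP-positive replicate 2 (adjusted p = 0.00416) and -1.33 without title numbers 1 to 4 (adjusted p = 0.00612). In GFP-negative cells Arc1 averaged 6.39 ± 1.60 in KO and 9.85 ± 1.11 in WT brains, a ratio of 0.649, and did not pass (log2 difference -0.57 ± 0.303, adjusted p = 0.667). Within runs of title numbers, the ratio of KO to WT was 0.464, 0.526 and 0.313 in GFP-positive cells (title numbers 13 to 16, 1 to 4 and 5 to 8). In GFP-negative cells it was 0.545, 0.727 and 0.655 in the same order, so KO was lower in both fractions of every run. The 2 fractions of a run are not independent, since libraries of a run deviated together. The first 2 ratios of each set compare libraries of the same lane. Whether the genotype difference differed between the fractions was tested by the interaction, which was -0.62 ± 0.428 for Arc1 (limma adjusted p = 1).

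Arc2 averaged 4.24 ± 0.967 in KO GFP-positive and 6.38 ± 1.28 in WT GFP-positive cells, with a log2 difference of -0.50 ± 0.249 (limma adjusted p = 0.577). Its within-run ratios in GFP-positive cells were 0.839, 0.629 and 0.544, all below 1, while in GFP-negative cells they were 1.17, 0.936 and 0.420. Jra averaged 72.7 ± 5.44 in KO and 58.2 ± 3.88 in WT GFP-positive cells, with a log2 difference of 0.32 ± 0.107 (adjusted p = 0.214). The within-run ratios of Jra were 1.45, 1.22 and 1.10 in GFP-positive and 1.22, 1.03 and 1.13 in GFP-negative cells, above 1 in both fractions of every run. The last ratio of each set compares libraries of different lanes. The Fos partner kay gave 181 ± 36.5 in KO and 164 ± 5.49 in WT GFP-positive cells, a log2 difference of 0.12 with an interval of -0.196 to 0.442.

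For the other genes the GFP-positive libraries of the genotypes overlapped. Hr38 averaged 114 ± 81.2 in KO and 80.4 ± 43.1 in WT GFP-positive cells, a ratio of 1.41 that turned to 0.835 without KO GFP-positive replicate 2. Its interval, -0.715 to 1.49 on the log2 scale, takes in sizeable differences in both directions. sr averaged 287 ± 155 in KO and 225 ± 96.8 in WT GFP-positive cells (interval -0.79 to 1.38). Intervals were narrower for Atf3 (-0.495 to 0.76), cbt (-0.764 to 0.441) and puc (-0.0809 to 0.393), so a difference in puc of more than 0.393 on the log2 scale would lie outside its interval.

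In GFP-negative cells, 0 of the 9 genes were called between KO and WT by limma, edgeR or DESeq2, and 0 had an unadjusted p under 0.05, against 0.686% of all tested genes called. Arc1 was the only gene of the 9 whose libraries did not overlap, lower in KO, against 4.19% of all tested genes. Hr38 averaged 48.5 ± 28.5 in KO and 64.2 ± 17.2 in WT cells (log2 difference -0.53, interval -1.63 to 0.576). puc averaged 171 ± 14.5 in KO and 193 ± 20.1 in WT cells (-0.17, interval -0.409 to 0.0647). The median log2 difference was -0.17 over the 9 genes and 0.04 over all tested genes. The interaction of genotype with GFP called 0 of the 9 genes with each of limma, edgeR and DESeq2, and 0 had p under 0.05 before adjustment, against 0.555% of all tested genes. The interaction called 55 of all tested genes, and 101 with the replicate block, again with 0 of the 9.

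**Figure D3:**
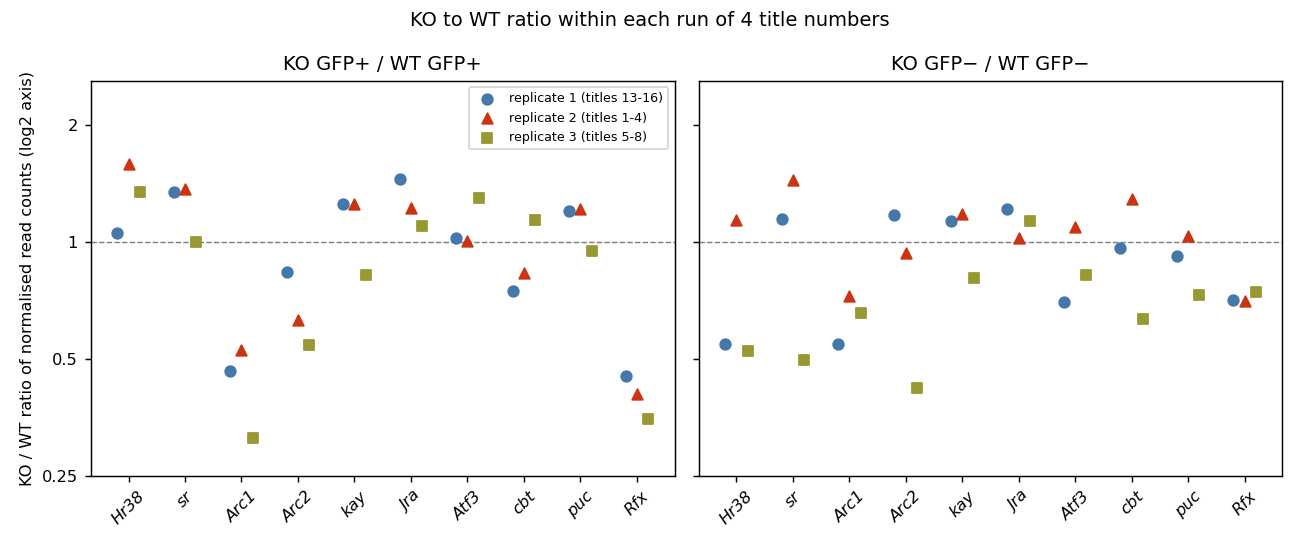
Ratio of KO to WT normalised read counts (vertical axis, log2 scale) for the 9 genes and Rfx, taken within each run of 4 title numbers, in GFP-positive cells (left) and GFP-negative cells (right). Arc1 lies below 1 in both fractions of every run, between 0.313 and 0.727, as Rfx does, while Jra lies between 1.03 and 1.45. In GFP-negative cells Hr38, sr, Arc2, kay, Atf3, cbt and puc fall on both sides of 1.

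Markers of other cell types did not pass between KO and WT GFP-positive cells, with 0 of 11 pan-neuronal, 0 of 10 neuroblast, 0 of 10 glial and 0 of 6 hemocyte genes called. Of 10 tested markers of trachea, muscle, fat body and eye disc, 1 was higher and 9 were not called, with a median log2 difference of 0.079. Summed over 11 such markers, the level was 231 to 264 in KO against 140.1 to 186 in WT GFP-positive libraries. Single markers differed: gl averaged 107.8 in KO against 77.8 in WT GFP-positive cells, while Mhc averaged 1.06 against 1.95. Summed hemocyte markers were 103 to 261 in KO and 114 to 273 in WT GFP-positive libraries. The part of these cells in the Arc1 and Jra values was not tested.

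The libraries of replicate 2 stood apart for some of the 9 genes and not for others. Hr38 deviated from its group mean on the log2 scale by 1.083 in KO GFP-positive, 0.81 in WT GFP-positive, 0.87 in KO GFP-negative and 0.16 in WT GFP-negative replicate 2. sr deviated by 0.82, 0.66, 0.83 and 0.21 in the same libraries, in the same order. Both transcripts were therefore above their group mean in all 4 libraries of title numbers 1 to 4, and least so in WT GFP-negative cells. Arc1 deviated by 0.75, 0.47, 0.32 and 0.16, and cbt by 0.42, 0.52, 0.51 and 0.04, again in that order. Arc2 deviated less in GFP-positive cells, by 0.20 in KO and 0.28 in WT, and by 0.37 in KO and 0.18 in WT GFP-negative cells. Atf3 shared the deviation in GFP-positive cells, at 0.54 in KO and 0.66 in WT, but stood at -0.12 in WT GFP-negative replicate 2. The median over the 9 genes was 0.42 in KO GFP-positive, 0.47 in WT GFP-positive, 0.32 in KO GFP-negative and 0.12 in WT GFP-negative replicate 2. In the remaining 8 libraries the same median ran between -0.31 and 0.05, and over all tested genes it stood between -0.08 and 0.07 in all 12 libraries.

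kay, Jra and puc did not follow. In the same libraries, in the same order, puc deviated by 0.12, -0.003, 0.13 and -0.09, and Jra by 0.004, 0.03, -0.01 and 0.12. kay stood at 0.15 in KO GFP-positive but -0.05 in WT GFP-positive replicate 2. The coefficient of variation is given for each group. For Hr38 it was 71.5%, 53.5%, 58.7% and 26.8% in KO GFP-positive, WT GFP-positive, KO GFP-negative and WT GFP-negative cells, above 91.5% to 99.4% of genes with a group mean of at least 5. For sr it was 53.9%, 43.0%, 59.9% and 21.9% in the same groups, above 95.2% to 99.1% of such genes in the first 3 groups and above 83.3% in WT GFP-negative cells. For kay it was 20.2%, 3.35%, 14.2% and 6.30%, which is above the median gene in both KO groups and below it in both WT groups. For Jra it was between 4.00% and 10.2%, and for puc between 8.01% and 10.4%, each below the median gene of its group. The median gene had 9.40% to 12.8%.

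**Figure D4:**
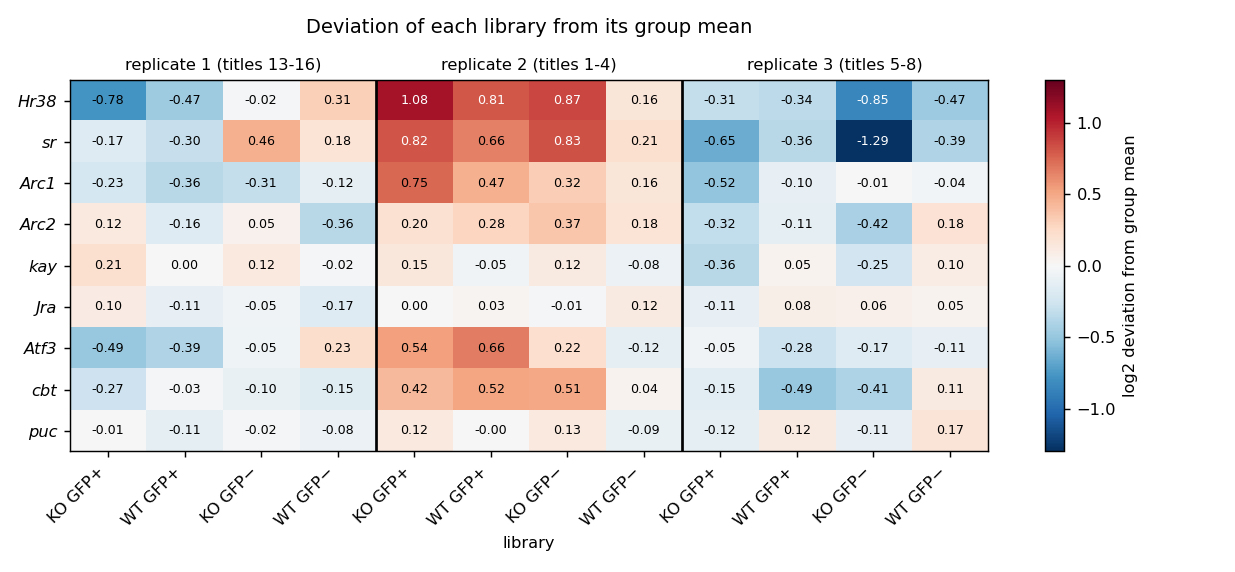
Log2 deviation of each library from its group mean for the 9 genes (numbers and colour), with libraries ordered by replicate. Replicate 2 is raised for Hr38, sr, Arc1, Arc2 and cbt, up to 1.083, with the smallest values in WT GFP-negative cells, while kay, Jra and puc lie between -0.36 and 0.21 in all libraries.

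Over the 12 libraries after removal of group means, the deviations of Hr38 correlated with those of sr (Pearson r = 0.886), Atf3 (0.884), cbt (0.827) and Arc1 (0.771). The r between kay and puc was 0.661, between Arc1 and Arc2 0.608, and between kay and its partner Jra 0.235. These are descriptions over libraries that share title runs, lanes and scaling. Pan-neuronal genes moved along with replicate 2, with a median deviation of 0.45 in KO GFP-positive, 0.39 in WT GFP-positive, 0.27 in KO GFP-negative and 0.10 in WT GFP-negative cells. Heat shock and stress genes did not: their median deviation was below 0 in replicates 1 and 2 of every group and 0.30 to 0.49 in replicate 3. Of the replicate 2 libraries, WT GFP-positive had 12.2% rRNA reads and the others 0.495% to 0.976%, and WT GFP-positive replicate 3, on the same lane, had Hr38 at 58.0. The part of neuronal content, rRNA share, lane or handling in the replicate 2 values was not tested.

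Among 7262 other genes with a mean of at least 5, those most like each member in these deviations were named by the highest r over the 12 libraries. For Hr38 they were Gfrl (0.988), sdt (0.983) and sif (0.981), and for sr they were CG17364 (0.993), CG8910 (0.985) and tipE (0.983), of which tipE encodes an auxiliary subunit of the neuronal sodium channel. For Atf3 they were Glut4EF (0.995), dpr1 (0.992) and Tob (0.984), and for cbt they were aralar1 (0.985), Scgalpha (0.974) and GAPcenA (0.970). Many genes followed Hr38 closely, with 257 above an r of 0.9, whereas puc had 2 such genes. The closest to Arc1 were slp2 (0.944), ths (0.942) and E2f1 (0.940), and to Jra they were Sar1 (0.964), Sas10 (0.964) and TfIIB (0.963). For kay they were plx (0.967), CG16974 (0.940) and Lpin (0.938), and for puc SCaMC (0.914), CG8229 (0.905) and Ak1 (0.875). Arc2, set against 7263 genes since its own mean is below 5, was closest to CG1907 (0.977), Thor (0.972) and Tsr1 (0.963).

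Other candidate activity-regulated transcripts of fly neurons, listed from general knowledge, were also compared between the fractions. Of 8 such genes tested, 5 were called higher in KO GFP-positive than in KO GFP-negative cells and 5 in WT GFP-positive than in WT GFP-negative cells, with 0 lower and 3 not called in each genotype, where 23.6% of all tested genes were higher in KO and 25.7% in WT brains. With equal totals 5 were higher in KO and 4 in WT brains. CG13868 averaged 257 ± 24.0 against 122 ± 18.4 in KO and 314 ± 22.5 against 131 ± 9.88 in WT brains, and CG14024 averaged 249 ± 55.4 against 90.7 ± 23.5 in KO and 274 ± 76.2 against 99.8 ± 10.9 in WT brains. CG8910, also among the genes closest to sr, averaged 125 ± 30.6 against 45.5 ± 13.9 in KO and 97.3 ± 26.4 against 46.9 ± 5.33 in WT brains. Between KO and WT, 0 of the 8 were called in either fraction by limma. A further list held 18 tested genes of calcium and cAMP signalling to the transcription factor CrebB, whichever way they act on it. Of these, 11 were called higher in GFP-positive cells of KO and 10 of WT brains, with 0 lower, against the same 23.6% and 25.7% of all tested genes. The other 7 and 8 were not called, and with equal totals 6 were higher in KO and 5 in WT brains. CanB, a calcineurin regulatory subunit, averaged 723 ± 118 against 277 ± 42.7 in KO and 767 ± 111 against 278 ± 40.8 in WT brains. Sik2, a kinase that acts on the CREB coactivator Crtc, averaged 591 ± 81.3 against 251 ± 36.1 in KO and 539 ± 34.7 against 245 ± 14.9 in WT brains.

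The Jun kinase pathway upstream of kay, Jra and puc held the genotype difference with the smallest adjusted p among the listed genes. wnd, the fly DLK kinase that starts Jun kinase signalling after axon injury, averaged 43.9 ± 6.57 in KO GFP-positive and 176 ± 12.7 in WT GFP-positive cells (log2 difference -1.99 ± 0.122, limma adjusted p = 8.84e-07). In GFP-negative cells it averaged 28.5 ± 2.25 in KO and 97.3 ± 8.25 in WT cells (-1.74, adjusted p = 5.99e-06). wnd was the only one of 17 tested pathway genes called between KO and WT in either fraction, while puc, the pathway's feedback gene, was not called in either. Of 14 tested targets of Jun kinase and injury, Ets21C, an ETS transcription factor, was higher, at 8.10 ± 1.75 in KO against 3.15 ± 0.20 in WT GFP-positive cells (adjusted p = 0.00693), and 13 were not called. With the replicate block Thor, which encodes a repressor of translation, was called as well (adjusted p = 0.0354). Between fractions, 8 of the 17 pathway genes were higher and 3 lower in GFP-positive cells of both genotypes. Of all tested genes, 23.6% were higher in KO and 25.7% in WT brains, and 1274 and 1215 of 9912 were lower. With equal totals this balance turned, with 2 higher and 6 lower in KO and 3 higher and 8 lower in WT brains. The kinase bsk averaged 389 ± 56.6 in KO GFP-positive against 289 ± 22.2 in KO GFP-negative cells and 373 ± 55.5 in WT GFP-positive against 278 ± 34.9 in WT GFP-negative cells. The ligand egr was lower, at 3.66 ± 1.93 in KO GFP-positive against 74.1 ± 9.02 in KO GFP-negative cells and 2.70 ± 0.748 in WT GFP-positive against 72.2 ± 7.57 in WT GFP-negative cells. Of the injury targets, 3 were higher and 4 lower in KO GFP-positive cells, and 2 were higher and 6 lower in WT GFP-positive cells, each against the GFP-negative cells of its genotype (2 higher and 4 lower in KO, and 2 higher and 7 lower in WT, with equal totals). For all 9912 tested genes the counts were 2341 higher and 1274 lower in KO, and 2550 higher and 1215 lower in WT brains.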

How the data were processed

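RNA-seq libraries of 12 sorted samples were analysed from a table that the authors deposited, with no strand information. Each deposited value is a signal, the reads of a gene over a scaled library size. The values came out as whole reads for 100% of values within a tolerance of 0.001, so reads were recovered for count models and depths. The submitters' processing notes name edgeR 3.10.5, HTSeq 0.6.1, TopHat2 2.0.13 and the build BDGP6, without roles. Of 12610 identifiers, 12389 matched a BDGP6.54 annotation.

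Genes with a value of at least 1 in at least 3 libraries were tested in R 4.3.3 with limma 3.58.1 (limma-trend) on log2(value + 1), with 4 group means over all 12 libraries, two-sided, with Benjamini-Hochberg adjustment over 9912 genes; genes under 0.05 were called. A ratio is one of group means. Exact permutation of 3 against 3 libraries cannot give p under 0.1. The limma step was tested on simulated counts. Runs of title numbers paired the libraries: in each of 4 comparisons of 2 groups, all 3 pairs of a run had deviations from their group means that correlated above 0.1 (r from 0.113 to 0.604). The labels do not say what a run shares, and the blocked value stands where it changes a call. Alternatives included edgeR 4.0.16 and DESeq2 1.42.0 on recovered reads, other scalings, pseudocounts and filters, and libraries left out. The 9 genes and all gene lists were chosen with earlier results of these data known, so no list was tested. Of each list, called genes with the smallest p were named. Sequences were not used here.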

Additional observations from a re-analysis of the deposited data

How the results depend on the processing

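Over 26 alternative settings, 1070 of 1161 single-gene results kept their direction and their side of the threshold, 21 lost and 22 gained a call, and 48 changed sign. None of the 9 called differences, out of 45 single-gene results, changed sign. Some settings could not change a direction. The log2 difference stays the same with the replicate block, with the 2 groups compared only, or without a library of a group outside the comparison. In KO against WT GFP-positive cells the number of genes called, 0, became 1 (Arc1) with a pseudocount of 5, equal totals, quantile normalisation, lane as a covariate, the replicate block or without title numbers 1 to 4, and 2 with DESeq2. Leaving out single libraries gave 0 to 1 there, 2 to 4 between the WT fractions and 3 to 7 between the KO fractions. Equal totals gave 2 between the WT and 3 between the KO fractions.

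With runs of title numbers as a replicate block, 1 gene was called between KO and WT GFP-positive cells (Arc1, adjusted p = 0.0017), 5 between the WT fractions (cbt gained), 7 between the KO fractions (Hr38 and Arc2 gained) and 0 in the other comparisons. The block changed no other call of the 9 genes.

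Sign changes were all among uncalled differences. In KO against WT GFP-positive cells, leaving out single libraries gave -0.15 to 0.79 for Hr38, -0.11 to 0.63 for sr, -0.14 to 0.46 for Atf3 and -0.41 to 0.10 for cbt, which was 0.17 without the 2 libraries richest in rRNA. In KO against WT GFP-negative cells they gave -0.50 to 0.56 for sr, -0.023 to 0.16 for kay and -0.36 to 0.10 for cbt. There sr was 0.092 with edgeR, 0.064 with DESeq2 and 0.13 with lane as a covariate, which put cbt at 0.031. kay was -0.032 with equal totals, -0.042 with quantile normalisation, -0.019 with DESeq2 and -0.060 without title numbers 1 to 4. Between the WT fractions they gave -0.17 to 0.47 for Hr38 and -0.012 to 0.13 for puc. With equal totals Hr38 was -0.061, Jra -0.080 and puc -0.25. For puc, DESeq2 gave -0.10, edgeR -0.079 and quantile normalisation -0.23. Hr38 was -0.17 without the 2 libraries richest in rRNA and -0.089 without title numbers 1 to 4. Between the KO fractions Atf3 ran from -0.15 to 0.37, was -0.094 with equal totals and -0.036 without title numbers 1 to 4. For the interaction they gave -0.26 to 0.80 for sr, -0.039 to 0.26 for kay and -0.30 to 0.20 for cbt. Without the 2 libraries richest in rRNA the interaction was 0.059 for Arc2 and 0.28 for cbt, and for cbt 0.017 with equal totals and 0.23 without title numbers 1 to 4. The cause of these changes was not tested. Leaving out title numbers 1 to 4 was chosen after seeing the data. Counting depth limits Arc2 most, with 33 reads in its lowest library.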

Other observations

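Some relatives of the 9 genes were called between KO and WT GFP-positive cells, where 3.07% of all tested genes were called. Among 15 partners and relatives of Hr38, the nuclear receptors Hr51 and tll were higher in KO cells, Hr51 at 7.86 ± 2.08 in KO against 1.497 ± 0.451 in WT cells (limma adjusted p = 9.07e-05) and tll at 6.75 ± 1.29 against 3.70 ± 0.998 (adjusted p = 0.0486). With equal totals 1 of the 15 was called. usp, the receptor that pairs with Hr38 and with EcR, was not called by genotype, and it was higher in WT GFP-positive than in WT GFP-negative cells at 165 ± 6.38 against 131 ± 7.71. That difference depends on the scaling: between the WT fractions 4 of the 15 were higher and 4 lower, and with equal totals 1 was higher and 7 lower. Without equal totals, 25.7% of all tested genes were higher there and 1215 of 9912 lower. Among 9 zinc finger relatives of sr and cbt, Sp1 was lower at 13.8 ± 3.66 in KO against 31.2 ± 0.689 in WT GFP-positive cells, and btd was lower at 9.47 ± 1.44 against 20.0 ± 2.44. Of 14 other basic leucine zipper genes, vri, a repressor of the circadian clock, was lower at 27.2 ± 3.23 in KO against 45.4 ± 6.71 in WT GFP-positive cells (adjusted p = 0.0238).

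Of 16 ERK pathway genes, 0 were called between KO and WT GFP-positive cells by limma. In WT brains 8 were higher and 5 lower in GFP-positive than in GFP-negative cells, where 25.7% of all tested genes were higher and 1215 of 9912 lower. The ERK phosphatase gene Mkp3 stood at 303 ± 110 against 124 ± 16.6. With equal totals 3 were higher and 5 lower. Among 19 heat shock and stress genes, only Hsp70Ba was called by genotype without the replicate block, at 2.05 ± 1.10 in KO against 27.6 ± 6.65 in WT GFP-positive cells and 2.30 ± 1.45 in KO against 28.0 ± 9.11 in WT GFP-negative cells. It has near-identical copies among which reads could be split, so its value is uncertain. With the replicate block its relative Hsp70Ab was called too, at 56.1 ± 19.0 in KO against 30.6 ± 10.8 in WT GFP-positive cells (adjusted p = 0.000657) and 66.0 ± 35.0 in KO against 30.1 ± 14.3 in WT GFP-negative cells (adjusted p = 0.000281), as was Thor between KO and WT GFP-positive cells (adjusted p = 0.0354). Thor was higher in GFP-positive cells of both genotypes, at 619.5 ± 68.3 against 175 ± 45.6 in KO and 410.5 ± 76.9 against 140.0 ± 29.2 in WT brains.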
